A study of Mus musculus with 10 samples.

Results

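Bone morphogenetic protein (BMP) signaling was followed in mouse lens epithelium through 10 genes picked by name: the ligands Bmp2, Bmp4 and Bmp7, the receptors Bmpr1a and Bmpr2, the inhibitors of DNA binding Id1, Id2, Id3 and Id4, and the homeobox gene Msx1. All 10 were found among the 50763 genes of the count table, and 9 of them were among the 11092 genes that passed the low-expression filter of at least 2 FPKM (fragments scaled by transcript length and library size) in 5 of 10 libraries. RNA-seq libraries were made from pooled, freshly isolated lens epithelial explants of mice aged 3 weeks. The 3 wild-type (WT) pools came from up to 9 mice each, the 3 OVE853 pools from up to 18 explants of 9 mice and the 4 OVE918 pools from up to 14 explants of 7 mice. Lenses of both lines carried a fibrotic plaque at the anterior pole, and whole explants were used, not plaques alone. All groups share the FVB/N strain, and OVE853 and OVE918 are separate transgenic families in which an αA-crystallin promoter drives secreted, constitutively active human TGF-β1 in the lens, and no group received a treatment. The question addressed was whether lens epithelium that overproduces TGF-β1 differs from WT in these genes, and whether the lines differ from each other.

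BMPs are secreted ligands of the TGF-β superfamily. They bind paired type I and type II serine/threonine kinase receptors, which phosphorylate SMAD1, SMAD5 and SMAD9, and these join SMAD4 in the nucleus to switch on genes such as the ID family and Msx1. ID proteins lack a DNA-binding domain and hold basic helix-loop-helix factors away from DNA. In the eye, BMP4 and BMP7 are known for their part in lens induction, and BMP signaling has been studied as a counterweight to TGF-β in lens epithelial cells.

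Total counts per library ranged from 24073311 to 31908525. Bmp4 had as few as 45 counts in a library and Bmp2 as few as 58, Id4 had 200 or more, and the other members had 597 or more, so that counting error weighs most on the low values of Bmp2 and Bmp4. Tgfb1, through which the transgene was checked, reached 50.6 to 61.7 CPM (counts scaled to library size after TMM) in WT, 339 to 361 in OVE853 and 715 to 881 in OVE918, with no overlap between groups. Reads of the human transgene and of the mouse gene were not told apart. The 7 lens epithelial markers were present in every library, with Pax6 at 356 CPM or more and Foxe3 at 424 or more. In each line 1 of the 7 was a reduced DEG, the gap junction gene Gja1, at 512 to 572 CPM in WT, 98.0 to 127 in OVE853 and 55.6 to 79.9 in OVE918. Of all genes tested, 1.91% were reduced DEGs in OVE853 and 3.02% in OVE918. Cdh1, which encodes E-cadherin, had 258 to 395 CPM in WT, 171 to 227 in OVE853, without overlap, and 192 to 277 in OVE918. WT replicate 3 stood apart in 8 markers of retinal neurons, which summed to 809 CPM there, to 80.6 and 98.7 in the other WT libraries and to 23.2 to 131 in the transgenic libraries. Summed markers of Müller glia were also lower in the lines, at 3565 to 5425 CPM in WT against 2079 to 2947 in the transgenic libraries. Most of that sum was Dkk3, at 3051.4 to 3734.5 CPM in WT and 1834.3 to 2787.9 in the transgenic libraries. All 6 glial markers lay below WT without overlap in OVE853, and 5 did in OVE918, against 22.0% and 14.9% of all genes tested. Rlbp1 was 210 CPM in WT replicate 3 and 29.9 and 35.0 in the other WT libraries. Glul was 1060 CPM in WT replicate 3 and 333 and 330 in the other WT libraries. The 6 corneal markers summed to 237 to 1619 CPM in WT and to 26.6 to 93.3 in the transgenic libraries. That sum was nearly all Aldh3a1, with Kera at 0 in every library. Aldh3a1, Rlbp1 and the retinal neuron marker Calb2 are among the commonly reduced genes that the study lists from these same libraries. Their lower levels are therefore not independent support. The 8 lens fiber markers summed to 33015 to 61488 CPM in WT, 24167 to 46841 in OVE853 and 39190 to 86558 in OVE918. Within OVE918 this sum was 81372 and 86558 CPM in replicates 1 and 4, and 39190 and 60960 in replicates 2 and 3. The part of lens fiber, retinal, glial or corneal RNA in the levels given here was not tested. In pooled tissue, fewer cells of a type and less RNA per cell cannot be told apart.

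For the members, the data showed lower levels of all 3 ligands and of Msx1 in the lines, no DEG among the receptors, and mixed results among the ID genes. A differentially expressed gene (DEG) passed a false discovery rate (FDR) of 0.05 (Benjamini-Hochberg adjustment over all genes tested, quasi-likelihood test of edgeR) with a log2 fold change of 1 or more in size. In OVE853 vs. WT, 1 of the 9 members tested was a DEG, Bmp4, and it was reduced. Among all genes tested 4.43% were DEGs and 1.91% were reduced DEGs in that comparison. At the FDR alone, 4 members were lower in OVE853 (Bmp4, Bmp7, Id4 and Msx1), against 7.69% of all genes. In OVE918 vs. WT, 3 members were reduced DEGs (Bmp4, Bmp7 and Msx1), against 3.02% of all genes as reduced DEGs and 5.60% as DEGs of either direction. At the FDR alone Id3 joined them, which made 4, against 11.0% of all genes. By edgeR 0 members were elevated DEGs in either line, as by DESeq2, and at an unadjusted p under 0.05 there were 2 higher members in OVE853, Bmpr1a and Bmpr2, and 0 in OVE918. The median log2 fold change of the 9 members was 0.01 in OVE853 and -0.42 in OVE918, where the medians of all genes tested were -0.01 and 0.01. Both comparisons use the same 3 WT libraries.

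The groups were also compared by whether their libraries overlapped. All 3 OVE853 libraries lay below all 3 WT libraries in CPM for 4 of the 9 members tested (Bmp4, Bmp7, Id4 and Msx1), as did 22.0% of all genes tested. All 4 OVE918 libraries lay below WT for 3 of the 9 (Bmp4, Bmp7 and Msx1), as did 14.9% of all genes tested. Every OVE853 library lay above WT for 2 of the 9, Bmpr1a and Bmpr2, as did 23.4% of all genes tested.

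**Figure D1:**
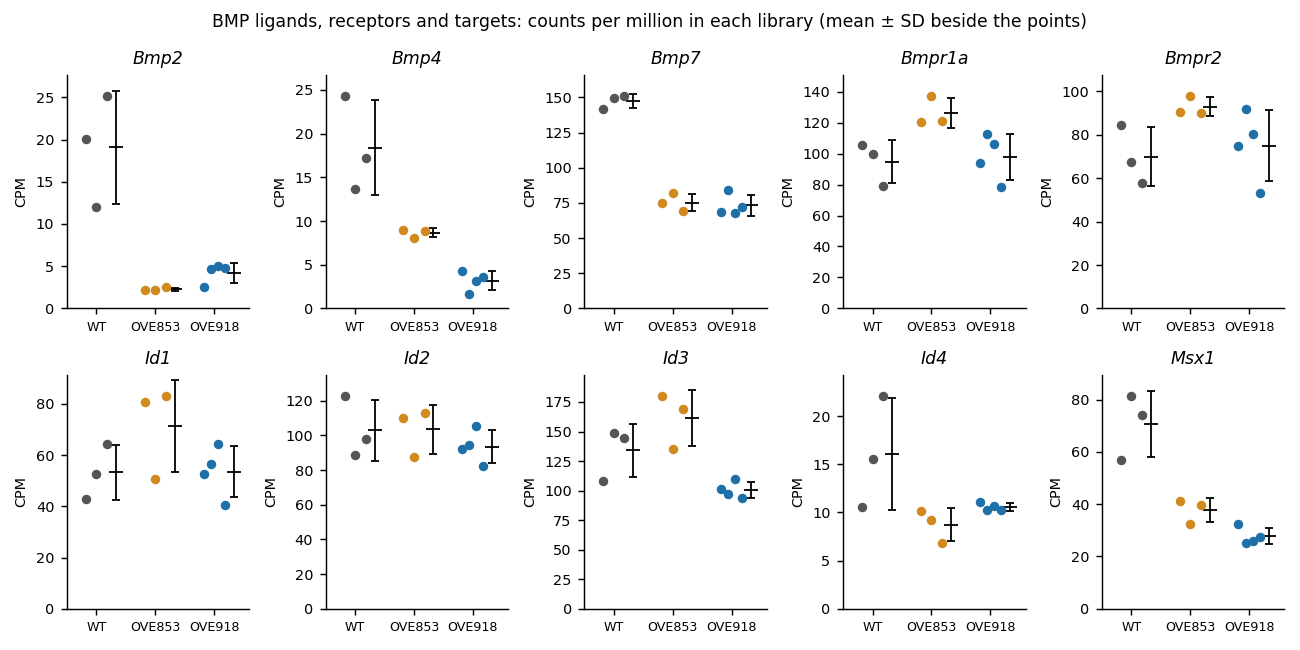
Level of each member in CPM (linear axis from 0) in every library, by group, with the group mean and SD drawn beside the points. The transgenic libraries lie below the WT libraries for Bmp2, Bmp4, Bmp7 and Msx1, whereas Id1 and Id2 overlap between all groups.

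Per unit of transcript length, Id3 was the most abundant member in WT, with a mean of 102 ± 20.4 FPKM (SD, n = 3). Id1 at 45.0 ± 10.5 FPKM, Id2 at 40.4 ± 5.48, Bmp7 at 36.1 ± 2.51 and Msx1 at 35.6 ± 7.39 followed and did not differ from their neighbours in this order beyond the spread between pools. Bmpr1a stood below them with 15.1 ± 1.82 FPKM. Bmp4 at 6.35 ± 1.64, Bmpr2 at 5.23 ± 0.820, Bmp2 at 5.19 ± 1.86 and Id4 at 3.93 ± 1.53 FPKM formed the low end, again with overlapping ranges. In OVE853 Bmp2 was lowest, at 0.664 ± 0.0737 FPKM (n = 3). In OVE918 both Bmp2 at 1.09 ± 0.335 and Bmp4 at 1.02 ± 0.306 FPKM (n = 4) lay below Id4 at 2.42 ± 0.164. Bmp7 was thus the most abundant of the 3 ligands in every group.

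**Figure D2:**
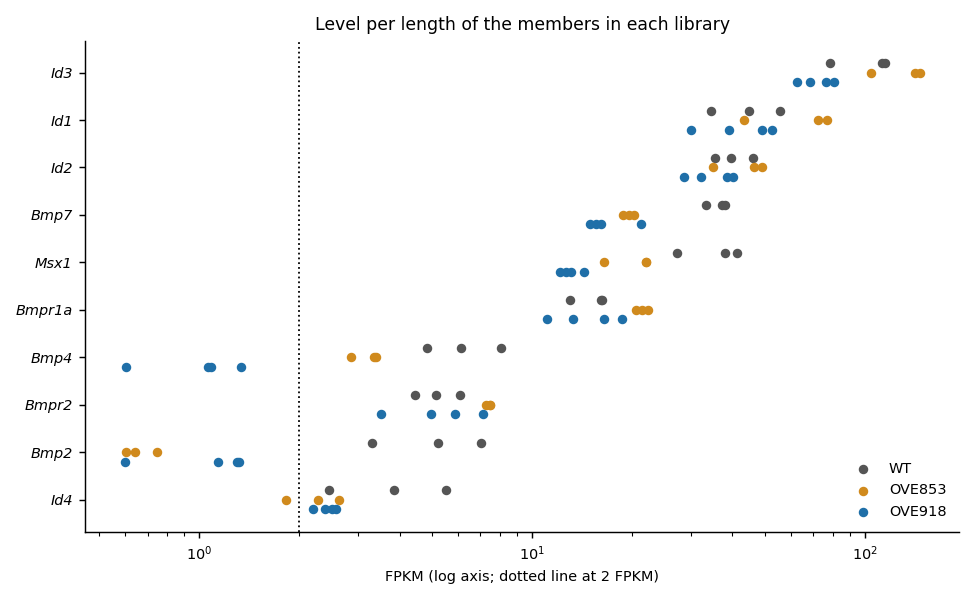
Level per transcript length of the 10 members in every library (FPKM on a log axis), ordered by the WT mean, with the dotted line at the filter value of 2 FPKM. Id3 is highest in WT, and only Bmp2 in both lines and Bmp4 in OVE918 lie below the line in all libraries of a group.

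The DNA just upstream of the start of transcription is shown for Bmp4, Msx1, Id4 and Id3, which were lower than WT in a line at least at the FDR alone. It is also shown for the ID gene Id2, which was not. SMAD complexes that carry BMP signals bind GC-rich elements and CAGAC boxes in such regions. RefSeq promoters of build GRCm38.p6 were matched for 7 of the 10 members (Bmp4, Bmpr1a, Bmpr2, Id2, Id3, Id4 and Msx1), and the 250 bases before the start are given 5′ to 3′ on the strand of the gene. Capitals mark every match, on either strand, to GGCGCC, which is its own reverse complement, to GGAGCC, or to CAGAC. These motifs do not overlap in the windows shown.
Bmp4 (chr14:46390670-46390919, minus strand): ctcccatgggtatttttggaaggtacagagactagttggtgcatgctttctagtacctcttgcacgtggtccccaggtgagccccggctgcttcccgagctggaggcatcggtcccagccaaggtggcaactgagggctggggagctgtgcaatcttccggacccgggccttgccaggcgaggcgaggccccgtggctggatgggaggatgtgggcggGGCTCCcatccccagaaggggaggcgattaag
Msx1 (chr5:37824586-37824835, minus strand): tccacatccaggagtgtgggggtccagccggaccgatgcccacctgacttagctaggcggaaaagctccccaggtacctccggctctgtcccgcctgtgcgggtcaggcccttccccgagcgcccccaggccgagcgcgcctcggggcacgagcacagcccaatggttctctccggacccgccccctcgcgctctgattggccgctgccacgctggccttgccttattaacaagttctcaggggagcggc
Id4 (chr13:48260866-48261115, plus strand): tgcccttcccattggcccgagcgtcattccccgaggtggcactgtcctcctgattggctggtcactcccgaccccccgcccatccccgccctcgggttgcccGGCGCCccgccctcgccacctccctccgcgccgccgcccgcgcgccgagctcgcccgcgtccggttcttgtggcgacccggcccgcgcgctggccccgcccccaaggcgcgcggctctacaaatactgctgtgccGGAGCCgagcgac
Id2 (chr12:25096093-25096342, minus strand): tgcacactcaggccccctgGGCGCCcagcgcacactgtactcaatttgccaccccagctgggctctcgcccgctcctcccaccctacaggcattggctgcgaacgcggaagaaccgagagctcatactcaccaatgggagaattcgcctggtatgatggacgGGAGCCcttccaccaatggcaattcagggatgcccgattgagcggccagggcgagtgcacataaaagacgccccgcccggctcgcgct
Id3 (chr4:136143572-136143821, plus strand): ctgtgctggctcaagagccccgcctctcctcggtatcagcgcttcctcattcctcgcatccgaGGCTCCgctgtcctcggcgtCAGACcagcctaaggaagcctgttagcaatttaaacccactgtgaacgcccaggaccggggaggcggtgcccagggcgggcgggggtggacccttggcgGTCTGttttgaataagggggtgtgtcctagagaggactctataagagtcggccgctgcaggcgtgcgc
The Bmp4 window held 1 match, to GGAGCC on the reverse strand, which began 32 bases before the start. The Msx1 window held none of the 3 motifs. Id4 and Id2 each held 1 GGCGCC and 1 GGAGCC, and Id3 held 1 GGAGCC on the reverse strand and 2 CAGAC, 1 on each strand. The unprinted windows of Bmpr1a and Bmpr2 each held 1 GGCGCC. Over the windows of the same length of all 32851 RefSeq promoters in the table, 9.59% held GGCGCC, 26.0% held GGAGCC, 42.2% held CAGAC and 60.9% held at least 1 of them. A match is a description of letters in this window and does not mark a bound site.

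Bmp4 was the member with the largest fitted difference among the 9 tested. The gene lies at chr14:46620250-46636745 on the minus strand (GRCm39). Its level was 24.3, 13.7 and 17.2 CPM in the WT libraries, 9.03, 8.12 and 8.89 in OVE853, and 4.33, 1.68, 3.16 and 3.55 in OVE918. The 3 groups did not overlap, with WT highest and OVE918 lowest. The log2 fold change was -1.08 ± 0.28 (SE, FDR 0.0276) in OVE853 vs. WT and -2.54 ± 0.28 (FDR 0.00012) in OVE918 vs. WT, so that Bmp4 was 2.12-fold and 5.80-fold lower in the fits. Bmp4 entered the test through WT and OVE853, since no OVE918 library reached 2 FPKM. The OVE853 call was lost without WT replicate 1 (log2 fold change -0.83, FDR 0.0534) and without any single OVE853 library (FDR 0.0882 to 0.0930), whereas the OVE918 call held in all 10 fits that left out a library.

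Bmp2 was lower in both lines than in WT, but it did not enter the main test. The gene lies at chr2:133394079-133404816 on the plus strand (GRCm39). Its level was 20.1, 12.0 and 25.2 CPM in WT, 2.21, 2.19 and 2.49 in OVE853, and 2.48, 4.62, 4.98 and 4.75 in OVE918. Every WT library lay above every transgenic library. Bmp2 reached 2 FPKM only in the 3 WT libraries, and a gene that does so in 3 libraries cannot pass a minimum of 5. It was therefore tested with the wider filter of edgeR's filterByExpr, which it passed with 58 counts or more in every library. In that fit Bmp2 was a reduced DEG in both lines, with a log2 fold change of -3.04 ± 0.32 (SE, FDR 0.000243) in OVE853 and -2.15 ± 0.28 (FDR 0.000452) in OVE918. With this filter the reduced DEGs among the 10 members were Bmp2 and Bmp4 in OVE853, against 3.72% of the 18058 genes tested, and Bmp2, Bmp4 and Msx1 in OVE918, against 5.34%. Both Bmp2 calls held in each of the 10 fits that left out a library, with log2 fold changes of -3.28 to -2.84 for OVE853, and of -2.38 to -1.92 for OVE918.

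Bmp7 differed in level from the other ligands but not in direction. The gene lies at chr2:172709805-172782410 on the minus strand (GRCm39). It was measured at 142, 149 and 151 CPM in WT, at 74.6, 81.8 and 69.5 in OVE853, and at 68.8, 84.3, 67.7 and 72.3 in OVE918. The transgenic libraries lay below WT without overlap and overlapped with each other. Its log2 fold change was -0.97 ± 0.10 (SE, FDR 0.000175) in OVE853 and -1.01 ± 0.09 (FDR 4.33e-05) in OVE918. Bmp7 was thus a DEG in OVE918 and just short of the minimum log2 fold change of 1 in OVE853. The call rested on that minimum and not on the FDR. The OVE918 call was lost without WT replicate 2 or 3 or OVE918 replicate 1 or 3 (log2 fold changes no closer to 0 than -0.97, FDR 0.00032 or less). The OVE853 call was made without OVE853 replicate 2 (-1.03). Gm40010 overlaps Bmp7 on the same strand, and its counts of 5 to 24 per library were small beside the 1568 or more of Bmp7.

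**Figure D3:**
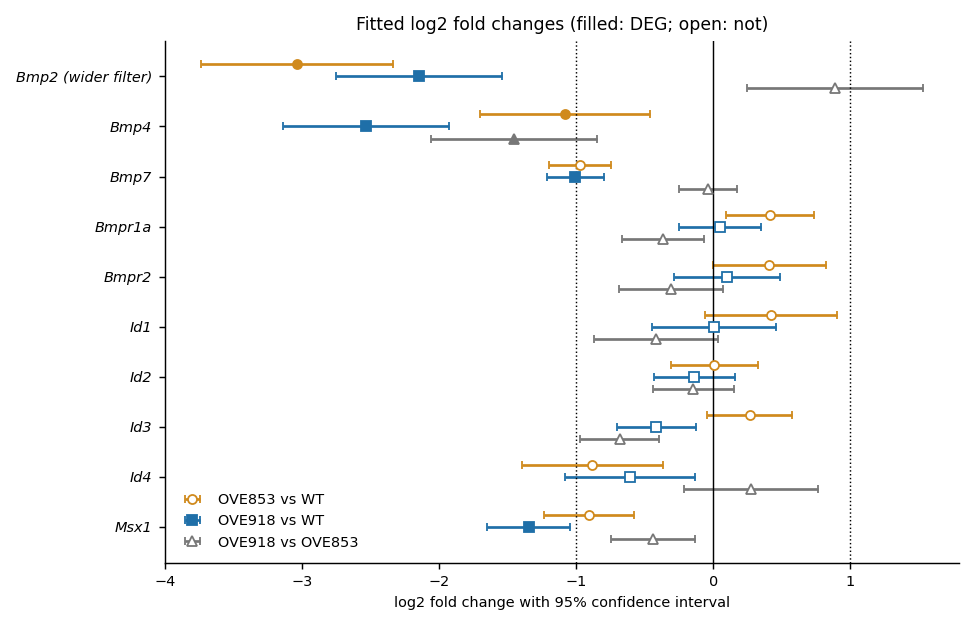
Fitted log2 fold change of each member with its 95% confidence interval for OVE853 vs. WT, OVE918 vs. WT and OVE918 vs. OVE853, with filled symbols for DEGs and dotted lines at -1 and 1. Bmp2 comes from the fit with the wider filter. Bmp4 lies at -1.08 and -2.54 in the comparisons with WT, and the intervals of Id2 include 0 in all 3 comparisons.

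The lower ligand levels came together with a lower sum of markers of the non-pigmented ciliary epithelium, which adjoins the lens equator. The 8 markers summed to 217 to 332 CPM in WT, 88.6 to 116 in OVE853 and 60.4 to 76.1 in OVE918, without overlap between the groups. Of the 7 markers tested, 4 were reduced DEGs in OVE853 and 6 in OVE918, and none was elevated. Of all genes tested, 1.91% were reduced DEGs in OVE853 and 3.02% in OVE918. Best2, a channel gene of these cells, had 31.0 to 51.4 CPM in WT, 5.55 to 9.15 in OVE853 and 0.877 to 3.98 in OVE918. The markers Best2, Slc6a13 and Wfdc1 are among the commonly reduced genes that the study lists from these same libraries. Their lower levels are therefore not independent support. Of the 8 markers, 5 lay below WT without overlap in OVE853 and 6 in OVE918, against 22.0% and 14.9% of all genes tested. Cyp26a1 was not lower, at 23.8 to 41.1 CPM in WT, 26.2 to 35.0 in OVE853 and 36.7 to 42.2 in OVE918. Opcml, at 0.492 to 3.37 CPM in WT, overlapped with WT in both lines. None of the 8 was below 1 CPM in all libraries. The part of these cells in the levels of Bmp2, Bmp4, Bmp7 and Msx1 was not tested.

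**Figure D4:**
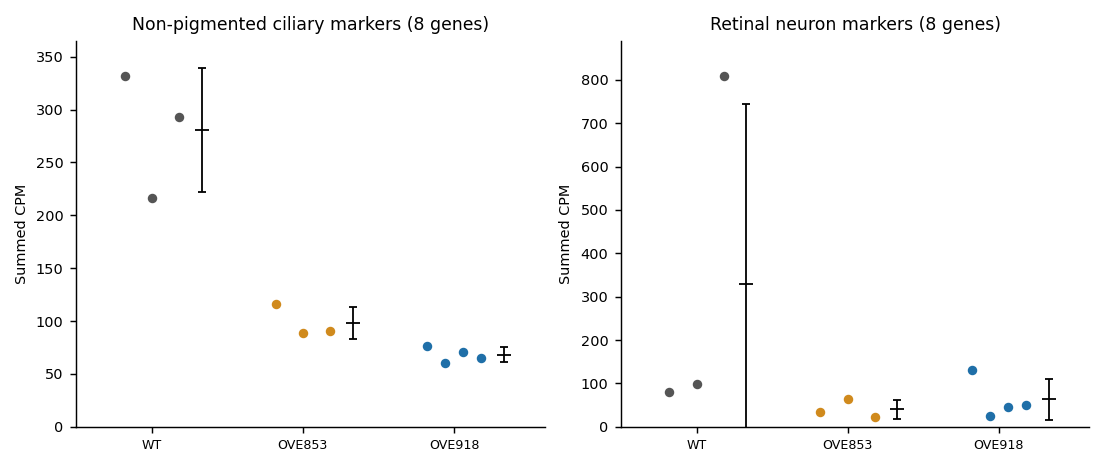
Summed CPM of 8 non-pigmented ciliary markers (left) and 8 retinal neuron markers (right) in every library, by group, with the group mean and SD beside the points. The summed ciliary markers are lower in every transgenic library than in any WT library, and WT replicate 3 stands alone in the retinal markers at 809 CPM.

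The receptors were not DEGs in any comparison, by edgeR or by DESeq2. At an unadjusted p under 0.05 both were higher in OVE853 than in WT and 1, Bmpr1a, was lower in OVE918 than in OVE853. Bmpr1a encodes a type I receptor and lies at chr14:34132687-34225379 on the minus strand (GRCm39). It was measured at 105, 99.8 and 79.3 CPM in WT, at 120.5, 137 and 121 in OVE853, and at 94.0, 113, 106 and 78.7 in OVE918. OVE853 lay above WT without overlap, and OVE918 overlapped with WT. In the fits the log2 fold change was 0.41 (95% interval 0.09 to 0.73, FDR 0.0756) in OVE853 and 0.05 (-0.25 to 0.35, FDR 0.846) in OVE918. The FDR in OVE853 ranged from 0.0328 to 0.221 over the alternative fits, and it was under 0.05 in 4 of 20.

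Bmpr2, the type II receptor that is used mainly by BMPs, lies at chr1:59802544-59918173 on the plus strand (GRCm39). Its level was 84.7, 67.2 and 57.9 CPM in WT, 90.7, 97.9 and 90.1 in OVE853, and 74.7, 91.8, 80.5 and 53.0 in OVE918. The pattern was like that of Bmpr1a, with OVE853 above WT and OVE918 spread across it. Against WT the log2 fold change was 0.41 (95% interval 0.00 to 0.82, FDR 0.146) in OVE853 and 0.10 (-0.28 to 0.49, FDR 0.729) in OVE918. Over the 10 libraries, log2(CPM + 1) of Bmpr1a and Bmpr2 had a Pearson's r of 0.95, the highest of all pairs of members. This is a description over libraries that fall into groups and differ in depth. A log2 fold change of -1 or of 1 lies outside the 95% intervals of both receptors in both lines.

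Among the targets, Msx1 was the clearest. The gene encodes a homeobox factor, is induced by BMP4 in several developing tissues, and lies at chr5:37977829-37981928 on the minus strand (GRCm39). Its level was 56.8, 81.3 and 74.0 CPM in WT, 41.0, 32.5 and 39.7 in OVE853, and 32.3, 25.3, 26.1 and 27.5 in OVE918. The 3 groups did not overlap, with OVE918 lowest, although OVE918 replicate 1 came close to OVE853 replicate 2. The log2 fold change was -0.91 ± 0.15 (SE, FDR 0.0029) in OVE853 and -1.35 ± 0.14 (FDR 7.88e-05) in OVE918, which made Msx1 a DEG in OVE918 alone. The OVE918 call held in all 20 alternative fits, and the OVE853 difference passed the FDR in all 20, with log2 fold changes from -1.04 to -0.80. It passed the minimum fold change in 1 of them, the fit without WT replicate 1. The difference between the lines in Msx1 was -0.44 (FDR 0.115) and did not pass the test.

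Id4 was lower in OVE853, and the size of the difference moved with the WT libraries used. The gene, an ID member known from the nervous system, lies at chr13:48414558-48419502 on the plus strand (GRCm39). Its level was 10.6, 15.6 and 22.1 CPM in WT, 10.1, 9.23 and 6.81 in OVE853, and 11.1, 10.3, 10.6 and 10.3 in OVE918. The WT libraries were spread widely, with replicate 3 highest, and OVE918 overlapped with the lowest of them. Its log2 fold change was -0.88 ± 0.23 (SE, FDR 0.0293) in OVE853 and -0.61 ± 0.22 (FDR 0.0744) in OVE918. Without WT replicate 3, the library with high retinal markers, it was -0.59 (FDR 0.0854) and -0.31 (FDR 0.322), and without WT replicate 1 it was -1.11 (FDR 0.00355) and -0.84 (FDR 0.00755). In OVE853 the FDR was also above 0.05 without WT replicate 2 or any single OVE853 library (0.0536 to 0.110). The part of retinal RNA in the WT level of Id4 was not tested.

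Id3, the most abundant member per length, set the lines apart. The gene lies at chr4:135870808-135873066 on the plus strand (GRCm39). It was measured at 108, 149 and 145 CPM in WT, at 180.0, 135 and 169 in OVE853, and at 102, 97.4, 109.7 and 93.5 in OVE918. OVE853 overlapped with WT, and OVE918 lay below OVE853 without overlap and reached into WT only through WT replicate 1. In the fits the log2 fold change was 0.27 ± 0.14 (SE, FDR 0.204) in OVE853 and -0.42 ± 0.13 (FDR 0.0494) in OVE918. The latter was at the edge of the threshold, and it was above an FDR of 0.05 in 8 of the 10 fits that left out a library, up to 0.158 without WT replicate 2. It held without WT replicate 1 or OVE853 replicate 2. The FDR was also above 0.05 with the wider filter (0.0642), with no filter (0.0691) and with only the groups compared (0.0688), and it passed in 7 of all 20 alternative fits.

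Id1 and Id2 showed no difference that passed the test. Id1 lies at chr2:152566218-152579544 on the plus strand (GRCm39) and had 42.9, 52.7 and 64.3 CPM in WT, 80.6, 50.7 and 83.0 in OVE853, and 52.4, 56.6, 64.3 and 40.6 in OVE918. In OVE853 a pair of libraries lay above WT and replicate 2 lay within it. The log2 fold change of Id1 was 0.42 (95% interval -0.06 to 0.91, FDR 0.199) in OVE853 and 0.00 (-0.45 to 0.46, FDR 0.991) in OVE918.

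Id2 lies at chr12:25143798-25147282 on the minus strand (GRCm39), and its level was 123, 88.4 and 97.9 CPM in WT, 110.3, 87.3 and 113 in OVE853, and 92.2, 94.5, 105 and 82.4 in OVE918. The groups overlapped throughout. Its log2 fold change was 0.01 (95% interval -0.31 to 0.32, FDR 0.976) in OVE853 and -0.14 (-0.43 to 0.16, FDR 0.519) in OVE918. The intervals of Id1 and Id2 leave room for moderate differences of either sign, but a log2 fold change of -1 or of 1 lies outside all 4 of them.

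The lines were then compared with each other. In OVE918 vs. OVE853, 1 of the 9 members tested was a DEG, Bmp4, with a log2 fold change of -1.46 ± 0.28 (SE, FDR 0.0397). Of all genes tested, 0.487% were DEGs in this comparison and 0.415% were reduced DEGs. At the FDR alone Id3 was lower in OVE918 as well (-0.68 ± 0.13, FDR 0.0414), which made 2 members against 0.929% of all genes. Both differences were close to the threshold, and with the wider filter neither passed it (FDR 0.0626 for Bmp4 and 0.0628 for Id3). The Bmp4 call was lost in 7 of the 10 fits that left out a library, all but those without WT replicate 1, WT replicate 3 or OVE918 replicate 2, with FDRs of 0.0503 to 0.175 and log2 fold changes of -1.64 to -1.42. The FDR of Id3 was above 0.05 in 7 of the 10, up to 0.186, and held without WT replicate 1, WT replicate 3 or OVE918 replicate 2. For Bmp7 the difference between the lines was -0.04 (95% interval -0.25 to 0.17, FDR 0.826), so that a difference of the size of that of Bmp4 lies outside its interval. Bmp2, in the fit with the wider filter, had a log2 fold change of 0.89 ± 0.29 (FDR 0.162), which did not pass the test.

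The genes whose levels followed Bmp4 most closely over the 10 libraries were Fmod, Bicdl1 and Gas1, with Pearson's r of 0.99, 0.98 and 0.98 on log2 CPM. Fmod encodes a small leucine-rich proteoglycan and had 129 to 156 CPM in WT, 63.9 to 81.5 in OVE853 and 17.0 to 37.6 in OVE918. Gas1 encodes a membrane protein that binds hedgehog ligands and had 87.1 to 111 CPM in WT, 67.1 to 72.6 in OVE853 and 39.3 to 49.6 in OVE918. The libraries fall into groups and differ in depth, and such values describe likeness only.

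A list of 61 other genes of the pathway was examined in the same fits, of which 29 passed the filter. In OVE853 vs. WT, 7 of the 29 were DEGs, 3 elevated (Gdf11, Fst and Atoh8) and 4 reduced (Rgma, Chrdl1, Nbl1 and Bambi), against 4.43% DEGs among all genes. In OVE918 vs. WT, 6 were DEGs, 2 elevated (Gdf11 and Fst) and the same 4 reduced, against 5.60%. The median log2 fold change of the list was 0.17 and 0.03. In OVE918 vs. OVE853 only Bmper was a DEG, against 0.487%. With the wider filter 49 of the 61 were tested and 15 were DEGs in each line, 5 elevated and 10 reduced, against 6.89% of all 18058 genes tested in OVE853 and 8.79% in OVE918.

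**Figure D5:**
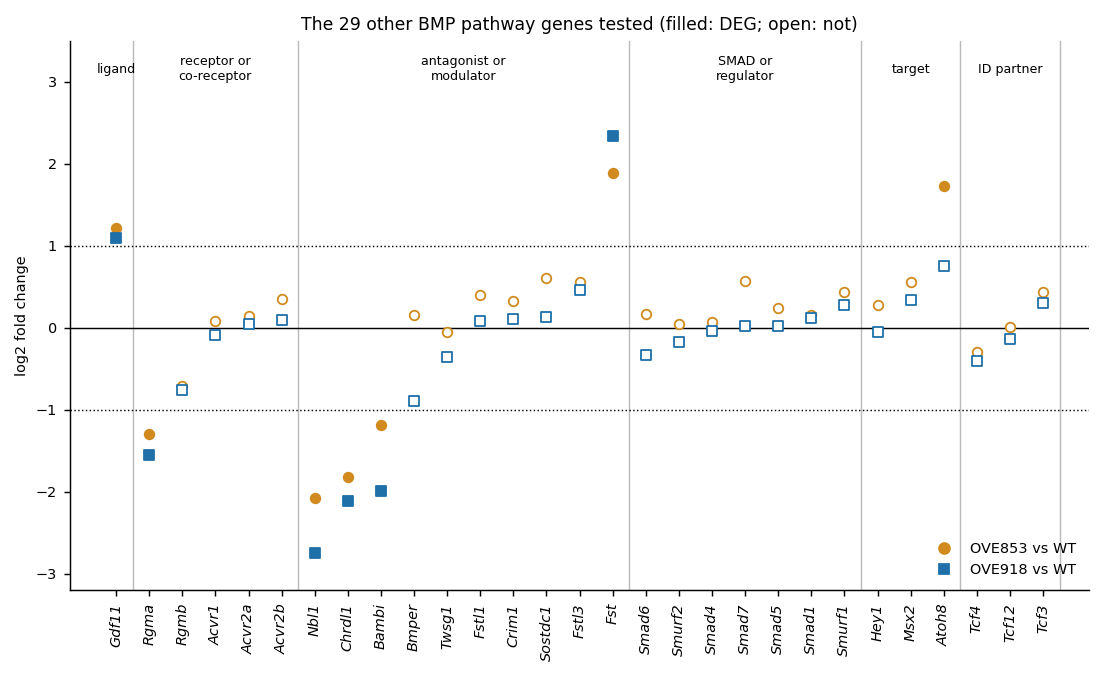
Log2 fold change of the 29 other BMP pathway genes tested, by role, for OVE853 vs. WT (circles) and OVE918 vs. WT (squares), with filled symbols for DEGs and dotted lines at -1 and 1. Nbl1, Chrdl1, Bambi and Rgma are reduced and Fst and Gdf11 elevated in both lines, and all 7 SMADs and SMAD regulators lie between -1 and 1.

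The antagonists and modulators held most of these DEGs, with 4 of 10 tested in each line, against 4.43% of all genes in OVE853 and 5.60% in OVE918. They were also the largest role, with 10 of the 29 genes tested. Nbl1 encodes DAN, a secreted antagonist that binds BMPs, and was 182, 214 and 300.0 CPM in WT, 52.5 to 57.7 in OVE853 and 24.5 to 39.5 in OVE918. Its log2 fold change was -2.08 (FDR 0.00012) in OVE853 and -2.75 (FDR 6.11e-06) in OVE918. Chrdl1, or ventroptin, which binds BMP4, was 115, 160.4 and 201 CPM in WT, 40.7 to 47.7 in OVE853 and 33.6 to 42.4 in OVE918. It fell by 1.82 and 2.11 on the log2 scale (FDR 0.000116 and 1.26e-05). All transgenic libraries lay below all WT libraries for both genes.

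Bambi, a decoy receptor without a kinase domain that is itself a BMP target, was 33.8, 19.4 and 21.7 CPM in WT, 10.2 to 11.4 in OVE853 and 4.28 to 7.51 in OVE918. Its log2 fold changes were -1.18 (FDR 0.00729) and -1.99 (FDR 0.000121), and it passed the filter in only 5 of the 10 fits that left out a library, with a call in all 5. Bambi entered the test through WT and OVE853, since no OVE918 library reached 2 FPKM. Fst moved the other way. It encodes follistatin, which binds activins and, less tightly, BMPs, and was 4.28 to 5.69 CPM in WT, 18.0 to 20.4 in OVE853 and 17.0, 18.1, 26.3 and 43.4 in OVE918. The log2 fold changes of Fst were 1.89 (FDR 0.00391) and 2.34 (FDR 0.000526), with OVE918 replicate 4 the highest library.

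Bmper encodes a secreted protein that binds BMPs in the extracellular space. It was 21.2 to 25.8 CPM in WT, 26.1 to 27.6 in OVE853, and 9.94, 14.7, 17.7 and 9.60 in OVE918. Only OVE918 was low, with a log2 fold change against OVE853 of -1.04 (FDR 0.0378), which was lost with the wider filter and in 6 of the 10 fits that left out a library, those without WT replicate 2, any single OVE853 library, or OVE918 replicate 1 or 4. Against WT it was -0.89 (FDR 0.00832), short of the minimum. The most abundant modulators per length, Crim1 with a mean of 309 FPKM over all libraries and Fstl1 with 274 FPKM, were not DEGs, with log2 fold changes of 0.33 and 0.41 in OVE853 and 0.10 and 0.08 in OVE918 (FDR 0.20 or more).

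Of the other 13 ligands only Gdf11 was tested. It encodes a ligand that signals mainly through SMAD2 and SMAD3, and was 52.5, 47.4 and 24.3 CPM in WT, 94.6 to 97.0 in OVE853 and 74.5 to 98.3 in OVE918. All transgenic libraries lay above WT. Against WT the log2 fold change was 1.21 (FDR 0.00663) and 1.09 (FDR 0.00543), but without WT replicate 3, the lowest, it was 0.94 and 0.82 and under the minimum. Gdf10, the next in level with a mean of 1.28 FPKM, passed only the wider filter, with 5.14, 21.1 and 30.2 CPM in WT, 1.74 to 3.78 in OVE853 and 1.15 to 2.61 in OVE918. There it was reduced by log2 fold changes of -2.67 (FDR 0.0171) and -3.54 (FDR 0.00179).

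Among the other receptors and co-receptors, 1 of 5 tested was a DEG in each line. Of all genes tested, 4.43% were DEGs in OVE853 and 5.60% in OVE918. Rgma, a BMP co-receptor of the repulsive guidance family, was 15.9, 23.6 and 36.4 CPM in WT, 9.12 to 11.1 in OVE853 and 8.05 to 9.46 in OVE918. Its log2 fold changes were -1.29 (FDR 0.00607) and -1.56 (FDR 0.00073). WT replicate 3 was the highest, and without it the OVE853 value was -0.94, under the minimum. Rgmb, of the same family, was lower at the FDR alone, as were 7.69% of all genes in OVE853 and 11.0% in OVE918. Its log2 fold changes were -0.71 (FDR 0.000418) and -0.76 (FDR 8.56e-05), with all transgenic libraries below WT. The type II receptor Acvr2b (8.14 FPKM over all libraries) and the type I receptor Acvr1 (4.81 FPKM) were not DEGs, with log2 fold changes between -0.09 and 0.35.

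Of the 7 SMADs and SMAD regulators tested, 0 were DEGs in either line by edgeR or DESeq2, and 2 had an unadjusted p under 0.05 in each line. In OVE853 these were Smurf1 and Smad7, both higher, and in OVE918 Smurf1, higher, and Smad6, lower. Smurf1 also passed the FDR alone in OVE853, with a log2 fold change of 0.44 (FDR 0.0277), as did 899 higher genes of all 11092. The most abundant of the 7 were the common mediator Smad4 (11.2 FPKM over all libraries), at 0.07 in OVE853 and -0.04 in OVE918 on the log2 fold change scale, and the inhibitory Smad6 (9.38 FPKM), at 0.17 and -0.33. Smad6 is a BMP feedback gene, and its levels were 24.1 to 36.1 CPM in WT, 31.8 to 36.5 in OVE853 and 23.9 to 25.8 in OVE918. Of 3 other BMP targets tested, Atoh8 alone was a DEG, in OVE853, against 4.43% DEGs among all genes tested. It passed the filter only through transgenic libraries, since no WT library reached 2 FPKM. Atoh8, a basic helix-loop-helix gene, was 2.89 to 4.00 CPM in WT, 13.4, 7.89 and 12.7 in OVE853 and 3.83 to 7.66 in OVE918, with a log2 fold change of 1.74 (FDR 0.0022) in OVE853 and 0.75 (FDR 0.0683) in OVE918. The difference between the lines in Atoh8 was -0.99 (FDR 0.0743) and did not pass the test.

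Msx2, the close relative of Msx1, did not share its pattern. It was 19.4, 25.4 and 16.7 CPM in WT, 32.3, 26.3 and 31.8 in OVE853, and 26.8, 19.5, 32.3 and 25.1 in OVE918, with log2 fold changes of 0.56 (95% interval 0.14 to 0.98, FDR 0.0712) and 0.34 (-0.06 to 0.74, FDR 0.219). The intervals of Msx1 and Msx2 against WT did not overlap in either line, although the difference between the genes was not tested. Hey1, a transcriptional repressor that BMP and Notch signals induce, was at 0.28 and -0.04 (FDR 0.30 and 0.885). Among the helix-loop-helix partners of the ID proteins, Tcf3 was at 0.44 (FDR 0.0297) and 0.31 (FDR 0.0748) and Tcf4 at -0.29 (FDR 0.189) and -0.40 (FDR 0.0626), and 0 of the 3 partners tested were DEGs by edgeR or DESeq2. At an unadjusted p under 0.05 there were 1 partner in OVE853, Tcf3, and 2 in OVE918.

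Below the filter of the main test, Grem1 and Gdf6 are named here after their values were seen. Grem1 encodes gremlin 1, a secreted antagonist of BMP2 and BMP4. It had 8, 3 and 0 counts in WT, 68, 58 and 76 in OVE853, and 83, 52, 72 and 111 in OVE918. With the wider filter it was an elevated DEG in both lines (FDR 0.00679 and 0.00158). Gdf6, a BMP family ligand of eye development, had 35, 25 and 50 counts in WT, 0 to 4 in OVE853 and 0 to 5 in OVE918, and was a reduced DEG (FDR 0.0107 and 0.00436). Both genes reached at most 1.05 FPKM in any library, and their groups did not overlap between WT and the lines. Grem1 passed the wider filter only through the transgenic libraries and Gdf6 only through WT. Their FDRs and the lack of overlap therefore describe genes picked for these values and are not independent support.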

How the data were processed

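Lens epithelial RNA of 10 pools (3 WT, 3 OVE853, 4 OVE918) was sequenced as paired reads. Per the study's methods and processing notes, adapters were removed by the authors (cutadapt 5.2), STAR 2.7.11b mapped the pairs to GRCm39 (mm39), and featureCounts 2.0.8 counted them per gene with reverse strandedness. The deposited values are raw counts of 50763 genes, whole numbers without normalization, and 0 columns lacked a sample. The pools are the replicates, so that p-values measure the spread between pools.

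From these counts, TMM-scaled CPM and FPKM were computed. FPKM used exon lengths of GENCODE vM39 primary transcripts, found for 43252 symbols, since the authors' RefSeq annotation was not used here. Genes with at least 2 FPKM in 5 libraries were tested with edgeR 4.0.16 in R 4.3.3 (glmQLFit with robust dispersions, glmQLFTest, 3 groups in 1 fit), with Benjamini-Hochberg adjustment over all genes tested per contrast. DEGs passed an FDR of 0.05 with a log2 fold change of 1 or more in size. Intervals are 95% intervals from the quasi-likelihood standard errors. The steps were tested on simulated data. Motifs were searched on both strands in the RefSeq promoter windows.

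All 10 members are named, with every other pathway gene that was a DEG in a comparison, the 2 of each role with the highest mean FPKM, and the 3 genes most correlated with each member called in both lines. Rgmb, Smurf1 and Smad7 are named besides, after their values were seen. The members and lists were chosen with earlier results of these data known. Alternatives were DESeq2 1.42.0, RLE size factors, filterByExpr, no filter, 6 libraries as the minimum, exon lengths of all transcripts, only the groups compared, the replicate number as a block, no robust estimation, the FDR alone and leaving out each library. Bias-adjusted deviances and the alternatives for Bmp2 within filterByExpr were added after seeing the data.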

Additional observations from a re-analysis of the deposited data

Results flagged for a closer look

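Bmp2 was set apart within OVE918 by 1 library. Replicate 1 had 2.48 CPM, far below the other 3, which lay between 4.62 and 4.98. Its gap to the next library took up most of the range of the 4. Such a gap arises by chance in about 1 in 20 groups, and 18 genes were examined.

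Bmp4 passed the test between the lines, where the direct comparison of OVE918 with OVE853 gave a log2 fold change of -1.46 (edgeR's quasi-likelihood test, FDR 0.0397), with all 4 OVE918 libraries below all 3 OVE853 libraries. The call was lost with filterByExpr (FDR 0.0626) and in 7 of 10 fits that left out a library. Id3 passed the FDR in the same comparison, at -0.68 (FDR 0.0414), again without overlap, and was likewise lost with filterByExpr (FDR 0.0628) and in 7 of 10 such fits. Bmper, a secreted modulator of BMPs, was at -1.04 (FDR 0.0378), with OVE918 at 9.60 to 17.7 CPM and OVE853 at 26.1 to 27.6. Its call was lost with filterByExpr and in 6 of 10 such fits.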

How the results depend on the processing

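The reduced calls of Bmp4 and Msx1 in OVE918 and of Bmp2 in both lines (with filterByExpr) held in every alternative in which these genes were tested. Members called in OVE853 vs. WT were 1 in the main fit, 2 with filterByExpr or with no filter, 0 with exon lengths of all transcripts, under which Bmp4 did not enter the test, and 4 with the FDR alone, and they ranged from 0 (without OVE853 replicate 1 or 3) to 2 (without WT replicate 1) when a library was left out. In OVE918 vs. WT they were 3, against 4 with the FDR alone, 2 with exon lengths of all transcripts, and 2 to 3 without a library. With filterByExpr or no filter they were also 3, but Bmp7 (-0.99 in both) was lost and Bmp2 was called. In OVE918 vs. OVE853 they were 1, but 0 with filterByExpr or exon lengths of all transcripts, 2 with the FDR alone, and 0 to 1 without a library. Pathway genes called in OVE853 vs. WT were 7, against 15 with filterByExpr, 13 with no filter, 12 with the FDR alone and 4 (without WT replicate 3) to 7 without a library. In OVE918 vs. WT they were 6, against 15, 13 and 10 with the same settings and 4 (without WT replicate 3) to 7 without a library. In OVE918 vs. OVE853 they were 1, against 2 with no filter and 0 to 1 without a library. Same-numbered pools did not vary together (correlations of -0.30 to 0.08). With the replicate number as a block the members called stayed 1, 3 and 1, and the pathway genes 7, 6 and 0, Bmper being lost, and Id3 no longer passed the FDR in OVE918 vs. WT (0.127) or OVE918 vs. OVE853 (0.134).

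Signs turned only for members near 0, when a library was left out. The log2 fold change of Bmp7 between the lines then ranged from -0.11 to 0.024, above 0 without OVE853 replicate 2. In OVE918 vs. WT, Bmpr1a ranged from -0.068 to 0.14 and Bmpr2 from -0.019 to 0.26, both below 0 without WT replicate 3 or OVE918 replicate 2. Id1 ranged from -0.13 to 0.16, below 0 in 4 such fits, and was -0.00066 with exon lengths of all transcripts. Id2 ranged from -0.10 to 0.15 in OVE853, below 0 in 4 such fits, and from -0.24 to 0.0045 in OVE918. The cause was not tested. With 3 or 4 pools a group, the intervals of the receptors and of Id1 and Id2 do not separate small differences from none.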
